A study of Caenorhabditis elegans with 52 samples.

Results

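Whole young adult Caenorhabditis elegans hermaphrodites carrying mutations in both puf-8 and fbf-1 (genotype puf-8 fbf-1, here PF) were compared before and after transfer to liquid with vehicle. The untreated group held 2 libraries from worms grown to young adulthood on seeded plates. The DMSO group held 4 libraries, 1 each after 1, 2, 4 and 6 h in 1 mL of S media with OP50 bacteria and DMSO, whose concentration the labels do not give. These 6 of the 52 libraries in the series were chosen by genotype, treatment and hour, and the 4 hours were pooled as 1 group, so the spread within that group holds both the hour and the difference between libraries. Both groups carry the same 2 mutations, so the comparison describes these mutants and is no test of the mutations. The rest of the series holds wild type N2, the double mutant puf-8; lip-1 (here PL), and worms given 100 uM U0126, which blocks the kinase MEK, in the same liquid.

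Transfer from a plate to liquid changes the osmotic setting, the access to bacteria and oxygen, and the movement of the worm at once. C. elegans answers osmotic stress by making glycerol, and answers fasting by burning fat through mitochondrial beta-oxidation and the glyoxylate cycle. The methionine cycle makes S-adenosylmethionine, the methyl donor of the cell, and the transsulfuration branch of that cycle carries homocysteine to cysteine, the precursor of glutathione. DMSO is a common solvent of drugs, and liquid, food, handling, DMSO and elapsed time were changed together here, so their parts in a difference cannot be told apart.

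The total gene counts of the 6 libraries, in units of 1000000, were 5.525 to 15.997, and 16234 to 17376 genes had at least 1 count. Levels are given as CPM, the counts of a gene per 1000000 counts of its library, after scaling the libraries to one another. The genotype labels were checked first. The puf-8 mRNA was at 3.10 and 4.17 CPM in the untreated PF libraries and at 4.26, 4.01, 5.78 and 3.96 CPM in DMSO at 1, 2, 4 and 6 h, against 116 to 178 CPM over 6 DMSO libraries of N2. The fbf-1 mRNA was at 0.74 and 0.33 CPM untreated and at 0.32 to 0.85 CPM in DMSO, against 21.2 to 36.4 CPM in the same N2 libraries. Of the oocyte genes only rme-2, which encodes a yolk receptor, was compared with N2. Its level was 15.9 to 27.7 CPM in the 6 PF libraries and 900 to 1412 CPM in N2 in DMSO. Whether other oocyte mRNAs were as low in PF was not tested. The labels do not say whether libraries came from separate cultures, so a p-value here reflects how far these samples differ among themselves, which may be technical.

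Transfer to liquid with DMSO was followed by a rise of 9 mRNAs and a fall of 2, of 13716 tested (edgeR quasi-likelihood F test, Benjamini-Hochberg adjusted p under 0.05). The 11 genes were 0.0802% of those tested, 0.0656% for rises and 0.0146% for falls. At an unadjusted p under 0.05 there were 863 genes or 6.29%, with 3.08% up and 3.21% down. The genes that rose were those of an arginine kinase, argk-1 (F44G3.2), of an enzyme of cysteine synthesis, cth-1 (F22B8.6), of a glutathione transferase, gst-29 (Y53F4B.32), of a fatty acid activating enzyme, acs-2 (F28F8.2), and of a linker histone, his-24 (M163.3), together with C45E5.1, F22B8.7, Y105C5B.5 and T10B5.8. Those that fell were cnp-3 (T23C6.3) and Y48E1B.8. For all 11 the DMSO and untreated libraries did not overlap, but DMSO lay above untreated without overlap for 8.03% and below it for 8.02% of all genes tested.

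The largest change was in argk-1, whose product keeps a phosphagen store of high-energy phosphate. Its level was 2.10 and 0.668 CPM in untreated replicates 1 and 2, and 57.7, 109, 103.6 and 93.0 CPM in DMSO at 1, 2, 4 and 6 h. The rise was already present at 1 h, the highest value was at 2 h, and the lowest DMSO library stood far above both untreated ones. The fitted change was 61.3-fold (log2 5.94, SE 0.44, edgeR adjusted p = 0.00114). In worms of the same genotype kept in U0126 the level was 34.9, 65.1, 59.0 and 28.8 CPM at the same hours, above untreated in each library.

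The second was cth-1, a cystathionine gamma-lyase, the enzyme that releases cysteine in the transsulfuration branch. It stood at 26.99 and 22.9 CPM untreated and at 198, 338, 377 and 240 CPM in DMSO at 1, 2, 4 and 6 h. All DMSO libraries were above both untreated libraries, with the lowest value at 1 h. It rose 11.5-fold (log2 3.52, SE 0.31, edgeR adjusted p = 0.00279). The U0126 libraries held 163, 233, 279 and 62.7 CPM. The gene numbered next to it, F22B8.7, stood at 42.6 and 40.4 CPM untreated and at 104.1, 143, 118 and 164 CPM in DMSO. Its DMSO values were also above both untreated values at every hour, and it rose by 1.67 on the log2 scale (SE 0.21, edgeR adjusted p = 0.021). The paralog of cth-1, cth-2, was at 531 and 517 CPM untreated and at 663, 676, 712 and 710 CPM in DMSO, above untreated without overlap, and did not pass (log2 0.39, SE 0.15, edgeR adjusted p = 0.701).

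The transferase gst-29, of the family that conjugates glutathione to foreign and oxidised compounds, stood at 1.86 and 2.50 CPM untreated and at 14.4, 17.8, 19.2 and 22.4 CPM in DMSO. It was lowest at 1 h and highest at 6 h, and it rose by 3.09 on the log2 scale (SE 0.30, edgeR adjusted p = 0.00579). In U0126 the order of the hours was the other way at the ends, with 20.3, 22.1, 13.1 and 7.67 CPM. It was the 1 gene called of 32 glutathione transferases tested, whose median change was 0.11 against 0.02 over all genes. The stress transferase gst-4 stood at 35.03 and 37.6 CPM untreated and at 69.1, 51.997, 87.4 and 73.7 CPM in DMSO, above untreated in each library, and did not pass (log2 0.95, SE 0.22, edgeR adjusted p = 0.247).

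The acyl-CoA synthetase acs-2, which feeds fatty acids into mitochondrial beta-oxidation and is known to rise on fasting, stood at 22.03 and 46.7 CPM untreated and at 198, 363, 263 and 208 CPM in DMSO. The untreated libraries differed between themselves, and the lowest DMSO library was well above both. It rose 7.52-fold (log2 2.91, SE 0.37, edgeR adjusted p = 0.021). In U0126 it was at 343, 617, 260 and 646 CPM.

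The linker histone his-24 was the 1 called gene whose DMSO level was highest at 1 h and declined with each later library. It stood at 5.20 and 4.17 CPM untreated and at 37.9, 30.8, 26.03 and 18.3 CPM in DMSO at 1, 2, 4 and 6 h. It rose 5.93-fold over the pooled hours (log2 2.57, SE 0.33, edgeR adjusted p = 0.0229). The related H1-like gene hil-3 stood at 1.36 and 2.00 CPM untreated and at 11.99, 9.32, 10.9 and 4.93 CPM in DMSO, without overlap, and did not pass (log2 2.45, SE 0.47, edgeR adjusted p = 0.147). Both lay above untreated in all 4 DMSO libraries, and 24 histone genes were tested in all, with a median change of 0.10.

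The gene T10B5.8 went the other way over time. It stood at 2.85 and 4.84 CPM untreated and at 24.6, 30.007, 32.3 and 62.6 CPM in DMSO at 1, 2, 4 and 6 h, the highest at the last hour. It rose 9.91-fold (log2 3.31, SE 0.45, edgeR adjusted p = 0.0306). C45E5.1 stood at 16.7 and 15.4 CPM untreated and at 57.4, 72.9, 44.7 and 57.5 CPM in DMSO, with no order over the hours, and rose by 1.85 (log2, SE 0.22, edgeR adjusted p = 0.021). Y105C5B.5 stood at 87.0 and 73.6 CPM untreated and at 197, 234, 250 and 251 CPM in DMSO. That was the smallest called change, at 1.53 on the log2 scale (SE 0.18, edgeR adjusted p = 0.0207), and its 4 DMSO libraries lay close together.

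Of the 2 genes that fell, cnp-3 stood at 15.8 and 22.2 CPM untreated and at 3.47, 2.17, 3.06 and 1.297 CPM in DMSO. Every DMSO library was below both untreated ones, and the level was 7.92-fold lower (log2 -2.99, SE 0.37, edgeR adjusted p = 0.021). Y48E1B.8 stood at 80.3 and 33.7 CPM untreated and at 9.62, 16.47, 11.7 and 12.1 CPM in DMSO (log2 -2.19, SE 0.31, edgeR adjusted p = 0.0416). Its untreated libraries differed by more than its DMSO libraries did among themselves. An exon of Y48E1B.8 overlaps an exon of clec-145 on the opposite strand in the annotation used for names, and the kit does not mark strand, so its counts are uncertain. Exons of his-24 overlap those of the non-coding RNAs M163.16 and M163.19 on the opposite strand, so its counts are uncertain in the same way. M163.16 stood at 1.73 and 1.84 CPM untreated and at 13.1, 8.45, 6.81 and 7.52 CPM in DMSO, above untreated in each library (log2 2.31, SE 0.41, edgeR adjusted p = 0.107). Exons of Y105C5B.5 and C45E5.1 overlap those of piRNAs on the opposite strand, and the other 7 genes have no such overlap.

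**Figure D1:**
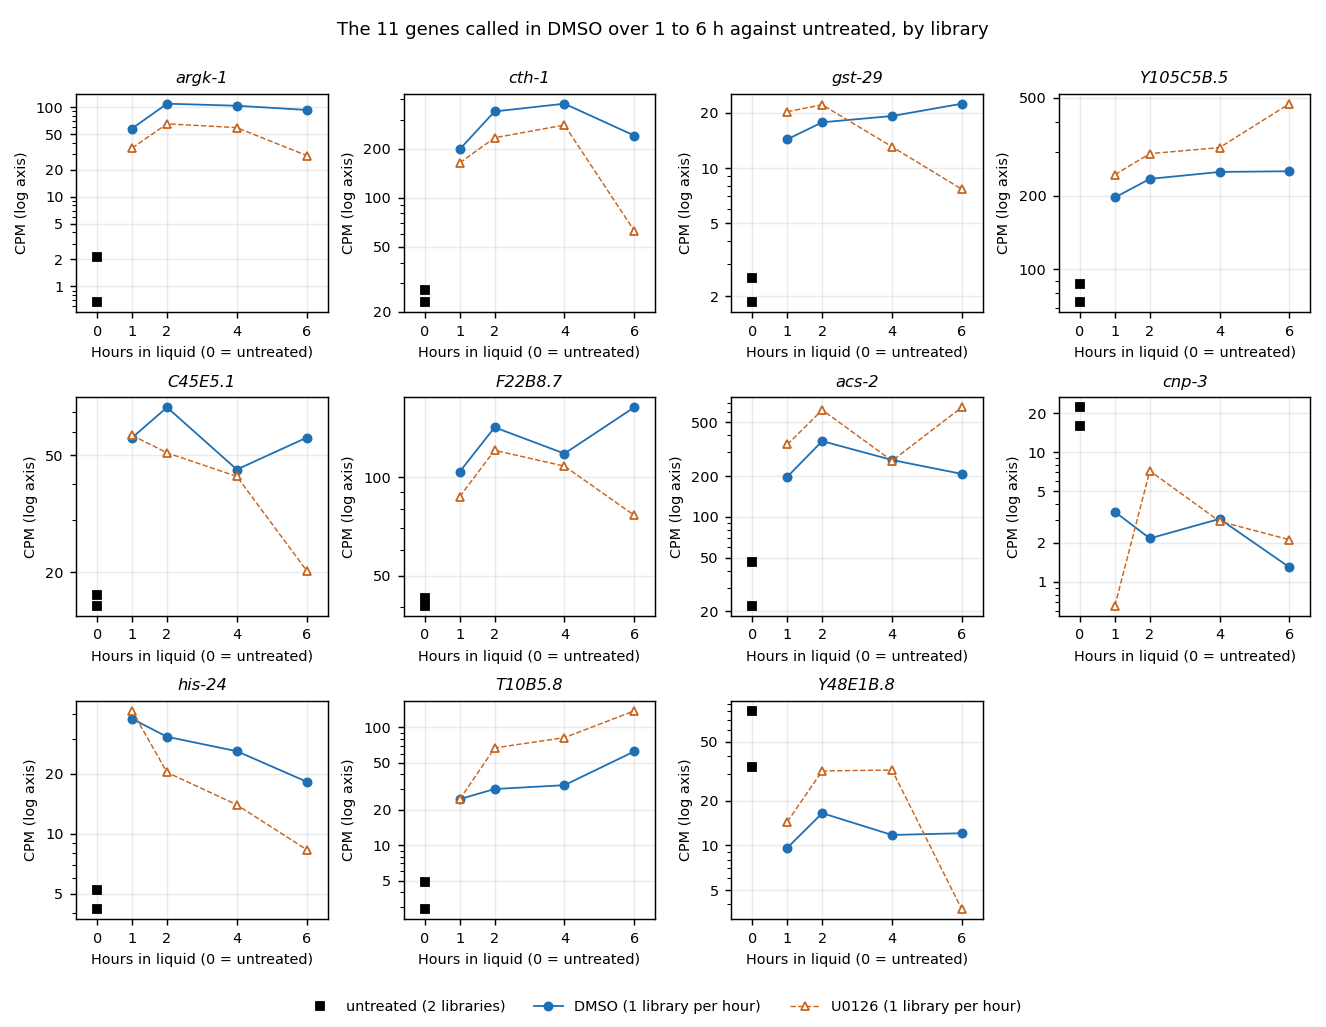
Level of each of the 11 called genes (vertical axis, CPM on a log axis) against hours in liquid (horizontal axis, 0 being untreated) in the 10 PF libraries: black squares untreated, blue circles DMSO, open orange triangles U0126. Each DMSO circle of 9 genes lies above both squares and each circle of cnp-3 and Y48E1B.8 below them, with argk-1 going from 2.10 and 0.668 CPM untreated to between 57.7 and 109 CPM.

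How many genes were called rested on single libraries. Without untreated replicate 1 there was 1 call, without untreated replicate 2 there were 2, without the DMSO library of 2 h there were 3 and without that of 4 h there were 4, while there were 23 without the 1 h library and 15 without the 6 h library. The gene argk-1 was called in each of these 6 fits, cth-1 and gst-29 in 4, C45E5.1 in 3, Y48E1B.8 in 1 and the other 6 genes in 2.

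A fit that gives each hour its own group, and takes the spread from the replicate pairs of other groups in 51 libraries of the 3 genotypes, called 484 genes, of which 264 rose and 220 fell. It leaves out untreated replicate 2 of N2, and with that library, in a fit of all 52, 142 genes were called, 76 rising (0.462%) and 66 falling (0.401%), 0.863% in all. The 484 were 2.96% of the 16357 genes tested there, with 1.61% for rises and 1.34% for falls. The 51-library fit held 10 of the 11 genes, all but Y48E1B.8 (log2 -2.17, SE 0.74, edgeR adjusted p = 0.122). It also called gst-4, hil-3 and M163.16, described above, as rising (edgeR adjusted p of 0.00358, 0.0448 and 0.0123). With all 52 libraries his-24, gst-4 and hil-3 did not pass (edgeR adjusted p of 0.112, 0.175 and 0.131). Since each PF DMSO hour has 1 library, the variation between PF DMSO libraries does not enter the spread of the 51-library fit. Its calls are named below as calls of the 51-library fit, with those that the 52-library fit also made. Not every list with calls is described below. Of 65 glucuronosyltransferases ugt-26, ugt-31 and ugt-29 rose and ugt-63, ugt-30 and ugt-12 fell in both fits. That was 4.62% of the list in each direction, against 1.61% and 1.34% of all genes in the 51-library fit. Of 19 oxidative stress genes 3 rose in the 51-library fit and 0 with all 52 libraries.

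Several genes of the methionine cycle lay lower in DMSO, while cth-1 rose. Of 25 genes of one-carbon and propionate metabolism 1 rose (cth-1) and 0 fell in the fit of 6 libraries, with 3 up and 7 down at an unadjusted p under 0.05 and a median of -0.16. In the 51-library fit cth-1 rose and 5 of the 25 fell, metr-1, mtrr-1, sams-1, pmt-1 and mel-32, or 20% of the list against 1.34% of all genes. The lists were chosen with earlier results of these data known. This share and those of other lists are therefore descriptions and no independent support for a theme. With all 52 libraries metr-1, mtrr-1 and sams-1 fell and cth-1 rose, while pmt-1 and mel-32 did not pass (edgeR adjusted p of 0.0586 and 0.0869). The methionine synthase metr-1 stood at 603 and 708 CPM untreated and at 289, 202, 282 and 167 CPM in DMSO. All DMSO libraries were below both untreated ones (log2 -1.49, SE 0.23, edgeR adjusted p = 0.0682 over 6 libraries, and -1.47, SE 0.24, edgeR adjusted p = 0.00048 in the 51-library fit). Its reductase mtrr-1 stood at 146 and 147 CPM untreated and at 102, 79.6, 70.8 and 42.4 CPM in DMSO, lower at each later hour. The S-adenosylmethionine synthetase sams-1 stood at 720 and 638 CPM untreated and at 364, 460, 291 and 212 CPM in DMSO.

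Both mtrr-1 and sams-1 were below untreated in every DMSO library, with 51-library values of -1.01 (SE 0.23, edgeR adjusted p = 0.0122) and -1.04 (SE 0.22, edgeR adjusted p = 0.00927) on the log2 scale. The phosphoethanolamine methyltransferase pmt-1, a large user of S-adenosylmethionine, stood at 379 and 303 CPM untreated and at 248, 196, 217 and 256 CPM in DMSO. The serine hydroxymethyltransferase mel-32, which loads 1-carbon units onto folate, stood at 723 and 725 CPM untreated and at 627, 458, 385 and 394 CPM in DMSO. Neither overlapped its untreated libraries, and the 51-library changes were -0.53 and -0.62 on the log2 scale.

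Several osmolyte genes were higher in liquid than on plates. Of 21 osmotic stress genes tested 0 were called in the fit of 6 libraries, 7 were up and 0 down at an unadjusted p under 0.05, and the median was 0.12. In the 51-library fit 5 of 23 rose and 0 fell, 21.7% of the list against 1.61% of all genes: gpdh-1, gpdh-2, hmit-1.1, hmit-1.3 and nlp-29. With all 52 libraries gpdh-2 and hmit-1.1 rose, and gpdh-1, hmit-1.3 and nlp-29 did not pass (edgeR adjusted p of 0.108, 0.119 and 0.0696). The myo-inositol transporter hmit-1.1 stood at 25.995 and 4.34 CPM untreated and at 124, 316, 333 and 168 CPM in DMSO. Its untreated libraries were apart from each other, and the lowest DMSO library was above both (log2 3.92, SE 0.67, edgeR adjusted p = 0.098 over 6 libraries, and 3.86, SE 0.40, in the 51-library fit). Its paralog hmit-1.3 stood at 21.3 and 33.4 CPM untreated and at 46.5, 50.8, 69.9 and 69.4 CPM in DMSO, also without overlap.

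The glycerol-3-phosphate dehydrogenases gpdh-1 and gpdh-2, which make the osmolyte glycerol, were highest early. The level of gpdh-1 was 87.5 and 74.9 CPM untreated and 565, 332, 131 and 170 CPM in DMSO at 1, 2, 4 and 6 h. The level of gpdh-2 was 185 and 216 CPM untreated and 572, 563, 311 and 276 CPM in DMSO. Both were above untreated in all 4 DMSO libraries and nearer to it at 4 and 6 h than at 1 and 2 h, with 51-library changes of 1.70 (SE 0.42, edgeR adjusted p = 0.0223) and 1.07 (SE 0.14) on the log2 scale. The antimicrobial peptide gene nlp-29, known to rise under osmotic stress as well as infection, stood at 32.1 and 35.4 CPM untreated and at 79.8, 97.3, 41.9 and 48.1 CPM in DMSO.

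Among 28 genes of fat use and fasting 1 rose (acs-2) and 0 fell over 6 libraries, with a median of -0.02. In the 51-library fit 2 rose, acs-2 and icl-1, and 3 fell, hacd-1, fasn-1 and nhr-66, against 1.61% and 1.34% of all genes. With all 52 libraries acs-2 and icl-1 rose and hacd-1 fell, and fasn-1 and nhr-66 did not pass (edgeR adjusted p of 0.109 and 0.81). The glyoxylate-cycle enzyme icl-1 stood at 425 and 671 CPM untreated and at 2025, 3025, 1925 and 1385 CPM in DMSO, above untreated at every hour (log2 1.93, SE 0.33, edgeR adjusted p = 0.098 over 6 libraries, and 1.92, SE 0.28, in the 51-library fit). The fatty acid synthase fasn-1 stood at 878 and 619 CPM untreated and at 349, 489, 555 and 532 CPM in DMSO, below it. The dehydrogenase hacd-1 stood at 139 and 100 CPM untreated and at 22.6, 13.6, 49.3 and 101 CPM in DMSO. It was low at 1 and 2 h and its 6 h library overlapped the untreated ones.

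**Figure D2:**
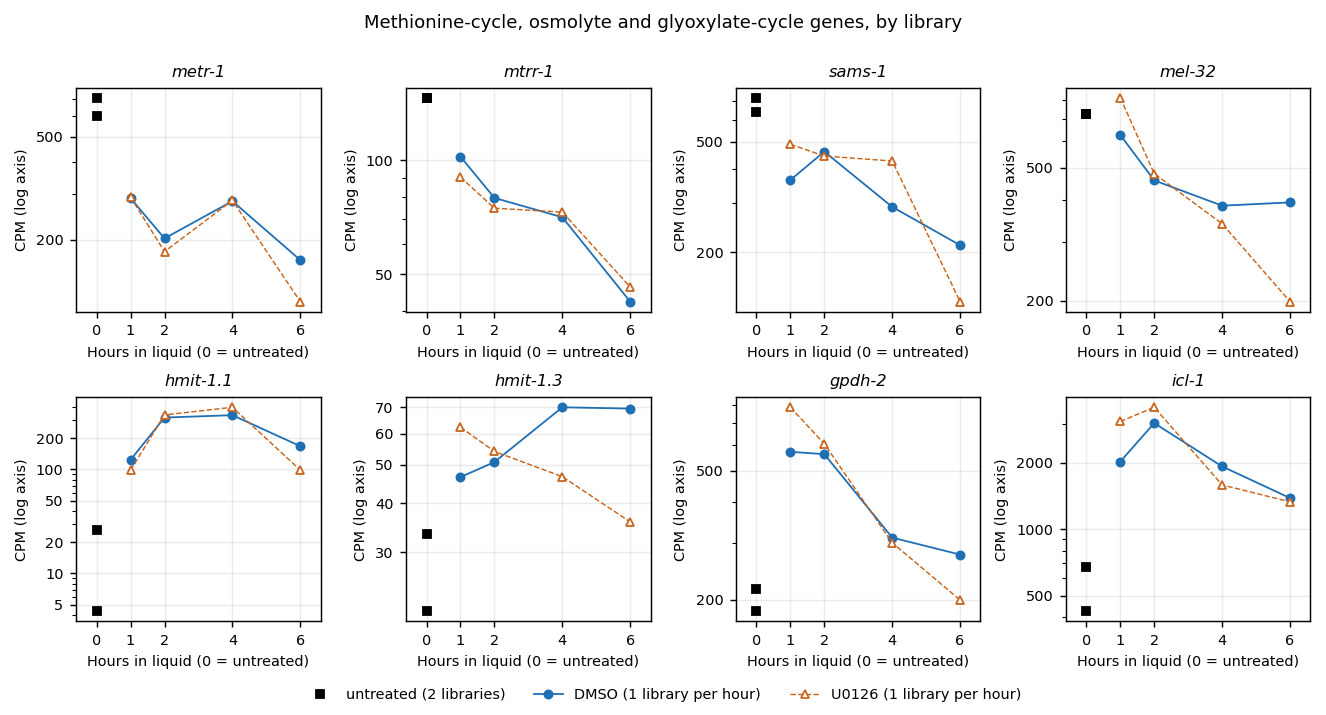
Level (vertical axis, CPM on a log axis) of 4 methionine-cycle and folate genes (top row) and 4 genes of myo-inositol transport, glycerol synthesis and the glyoxylate cycle (bottom row) against hours in liquid (0 being untreated) in the 10 PF libraries, with the symbols of the plot of called genes. The 4 DMSO circles lie below both untreated squares in the top row and above them in the bottom row, with metr-1 at 603 and 708 CPM untreated and 167 to 289 CPM in DMSO.

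No member of the protein folding lists was called as rising, though 6 of 19 endoplasmic reticulum stress genes had a positive change. Of 16 cytosolic chaperones tested 0 were called with edgeR, 0 were up and 2 down at an unadjusted p under 0.05, 1 had a positive change and the median was -0.45, against 0.02 over all genes. The cochaperone unc-23 stood at 48.6 and 62.6 CPM untreated and at 20.98, 27.2, 23.3 and 26.7 CPM in DMSO, below it in every library, and fell in the 51-library fit (log2 -1.14, SE 0.30, edgeR adjusted p = 0.0347) but not with all 52 libraries (edgeR adjusted p = 0.204). Of 19 genes of endoplasmic reticulum stress 0 were called over 6 libraries with edgeR, 5 being down at an unadjusted p under 0.05, with a median of -0.22, and 3 fell and 0 rose in the 51-library fit, the chaperone gene dnj-7, the disulfide isomerase pdi-6 and the choline kinase ckb-2, against 1.34% of all genes that fell. With all 52 libraries pdi-6 and ckb-2 fell and dnj-7 did not pass (edgeR adjusted p = 0.0556).

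Germline lists were not called. Of 49 sperm, 29 major sperm protein, 35 oocyte, 32 meiosis, 29 replication and 33 germline regulator genes tested 0 passed over 6 libraries (edgeR), with medians of 0.11, 0.20, 0.29, 0.03, 0.13 and 0.02. At an unadjusted p under 0.05, 1, 4, 4, 0, 0 and 0 of them were up, against 3.08% of all genes. A positive change was seen in 28 of 29 major sperm protein and 30 of 35 oocyte genes, against 52.8% of all genes. In the 51-library fit syp-3, a gene of the synaptonemal complex, rose and no other member of these 6 lists was called, and with all 52 libraries it did not pass (edgeR adjusted p = 0.112). The sex-determination genes fog-1 and fog-3, which promote sperm fate, stood at 34.8 and 38.1, and 22.8 and 25.7 CPM untreated, and at 31.7 to 42.9 and 24.6 to 34.4 CPM in DMSO. Their groups overlapped (log2 -0.01, SE 0.18, and 0.23, SE 0.19, edgeR adjusted p of 0.996 and 0.983).

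Of the other regulators named, puf-8 (0.30), lip-1 (-0.31), tra-2 (-0.14), gld-1 (0.08), mpk-1 (0.06), fem-3 (0.66) and rme-2 (0.36) had the log2 changes given, none passed with edgeR, and fbf-1 was under the low-count limit. With SEs of 0.16 to 0.42 on the log2 scale for these genes, small changes were not detectable.

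Markers of other tissues were measured as well, since in whole worms fewer cells of a type and less RNA per cell cannot be told apart. Of 21 body wall muscle genes 1 had a positive change and 0 passed with edgeR, 5 being down at an unadjusted p under 0.05, with a median of -0.32. Their summed level was 22441 and 16313 CPM untreated and 13318, 14144, 17508 and 16650 CPM in DMSO, which overlap. The myosin gene myo-3 stood at 277 and 203 CPM untreated and at 96.4, 138, 98.3 and 46.8 CPM in DMSO, below it in each library (log2 -1.35, SE 0.33, edgeR adjusted p = 0.297). Intestine, neuron and molt genes had medians of 0.08, 0.04 and -0.06 with 0 called of 20, 21 and 20, and the part of these shifts in the results above was not tested.

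Within the liquid, the hour was tested over the 8 PF libraries in DMSO or U0126 as a slope per doubling of the hour shared by both treatments. By hour 103 genes rose and 217 fell of 13893 tested, 2.3% in all (0.741% rising, 1.56% falling), with edgeR. At an unadjusted p under 0.05 there were 2709 genes or 19.5%, 9.13% up and 10.4% down. Called genes numbered 109 without the 1 h, 139 without the 4 h and 781 without the 6 h library of DMSO, and 70, 168 and 179 without those of U0126. Only his-24 and T10B5.8 of the 11 genes above were among them, 2 of the 11 and 2 of the 320. In a fit of the same 8 libraries with separate slopes for DMSO and U0126, the DMSO slope was called for 38 genes. Of these 11 rose (0.0792%) and 27 fell (0.194%), 0.274% of those tested. That slope is named below as the slope in DMSO alone, though the U0126 libraries still enter its scaling and spread. The slope of his-24 was -0.62 (SE 0.10, edgeR adjusted p = 0.0143), and in DMSO alone it did not pass (-0.38, SE 0.11, edgeR adjusted p = 0.336). The shared slope of T10B5.8 was 0.64 (SE 0.11, edgeR adjusted p = 0.0162), and in DMSO alone it did not pass either (0.46, SE 0.14, edgeR adjusted p = 0.336).

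Cuticle collagens were 27 of the 217 genes that fell with the hour. Of 91 tested 27 fell and 0 rose, against 1.56% of all genes that fell, 78 had a negative slope and the median slope was -0.50 against 0.01. In DMSO alone 13 of the 91 fell and 76 were negative, and with 1 library left out 12 to 43 fell, the fewest without U0126 at 1 h and the most without DMSO at 6 h. The collagen col-81 stood at 149 and 380 CPM untreated and at 427, 247, 63.5 and 68.6 CPM in DMSO at 1, 2, 4 and 6 h (slope -1.23, SE 0.11, edgeR adjusted p = 0.00066). The collagen col-129 stood at 319 and 693 CPM untreated and at 694, 446, 138 and 135 CPM in DMSO. Both were highest at 1 h, at or above the higher untreated library, and below both untreated libraries at 4 and 6 h. Their pooled changes did not pass (log2 -0.40, SE 0.69, and -0.52, SE 0.60, edgeR adjusted p = 0.994 for both), and over all 93 collagens tested for the pooled hours 0 were called with edgeR, 3 were up and 1 down at an unadjusted p under 0.05, and the median was 0.04.

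The 1 h libraries stood apart in other abundant mRNAs too, in both directions. The 6 yolk protein genes were lower at 1 h, summing to 145782 CPM in DMSO and 150789 CPM in U0126. Their sums were 208671 and 211180 CPM untreated and 171993 to 232950 CPM in the later libraries in liquid. The part of that drop in the share left to other mRNAs was not tested. The mean level of 77 ribosomal protein genes, as log2(CPM + 1), was 9.47 in DMSO and 9.97 in U0126 at 1 h, against 8.97 and 9.04 untreated and 8.71 to 9.17 in the other 6 libraries in liquid. Major sperm proteins were at 7.58 and 8.14 at 1 h, against 7.27 and 7.05 untreated and 7.13 to 7.62 later, so that the 6 h libraries overlapped the DMSO library of 1 h. Collagens were at 5.71 and 5.14 at 1 h, against 4.47 and 4.82 untreated and 3.96 to 4.49 later. All 77 ribosomal slopes were negative, and 0 were called with edgeR, 67 having an unadjusted p under 0.05. Without both 1 h libraries 36 genes were called for the hour, 16 rising and 20 falling, and 3 of 78 collagens tested fell. The part of these libraries in the collagen slopes was not tested otherwise.

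**Figure D3:**
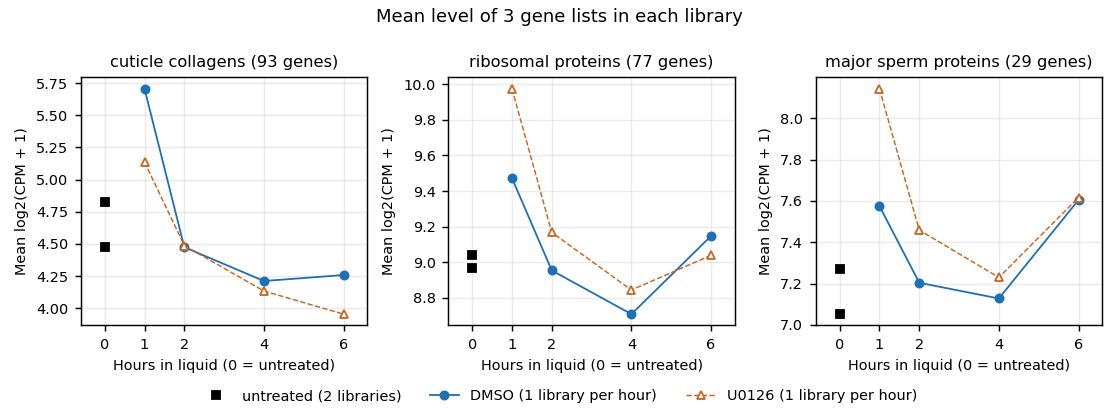
Mean log2(CPM + 1) of the tested collagens, ribosomal protein genes and major sperm protein genes (vertical axes, separate scales that do not start at 0) against hours in liquid (0 being untreated) in the 10 PF libraries, with squares for untreated, circles for DMSO and triangles for U0126. The 1 h libraries are the highest of each panel for the ribosomal and collagen lists, at 9.47 and 9.97 and at 5.71 and 5.14, and collagens then drop to between 3.96 and 4.49.

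Several genes of metal and hydrogen sulfide response rose by the slope shared with U0126. The ferritin gene ftn-1, which stores iron, stood at 1.61 and 5.17 CPM untreated and at 12.9, 17.5, 80.98 and 176 CPM in DMSO at 1, 2, 4 and 6 h. It was higher at each later hour and never overlapped the untreated libraries (slope 1.18, SE 0.16, edgeR adjusted p = 0.0041, and 1.52, SE 0.16, edgeR adjusted p = 0.00589 in DMSO alone). Its pooled change did not pass over 6 libraries (log2 4.47, SE 1.17, edgeR adjusted p = 0.343). The second ferritin gene, ftn-2, stood at 219 and 265 CPM untreated and at 436, 373, 427 and 449 CPM in DMSO, a step up with no order over the hours, and rose in the 51-library fit (log2 0.84, SE 0.13) but did not pass with all 52 libraries (edgeR adjusted p = 0.0652).

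The metallothionein mtl-1 stood at 7.06 and 1.67 CPM untreated and at 3.16, 3.25, 26.7 and 41.8 CPM in DMSO, within the untreated range at 1 and 2 h and above it later (slope 1.54, SE 0.21, edgeR adjusted p = 0.0041). The second metallothionein, mtl-2, fell with the hour, from 344 CPM at 1 h to 223, 158 and 197 CPM (slope -0.42, SE 0.08, edgeR adjusted p = 0.0239). In DMSO alone neither metallothionein passed (edgeR adjusted p of 0.0627 for mtl-1 and 0.376 for mtl-2). With cdr-2, a cadmium-responsive gene, 3 of 16 metal genes rose by the shared slope and 1 fell, against 0.741% and 1.56% of all genes. In DMSO alone 1 rose, ftn-1, against 0.0792% of all genes, and 0 rose without both 1 h libraries (edgeR).

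Of 16 hypoxia and sulfide genes 5 rose with the hour and 0 fell, against 0.741% of all genes that rose: fmo-2, cysl-2, cysl-3, nhr-57 and sqrd-1. The flavin monooxygenase fmo-2, known as a target of the hypoxia factor HIF-1, stood at 0.12 and 0.33 CPM untreated and at 0.32, 2.27, 13.8 and 12.78 CPM in DMSO. It overlapped untreated at 1 h and was higher at 2 h and later (slope 1.81, SE 0.25, edgeR adjusted p = 0.0048). The cyanoalanine synthase cysl-2, which handles cyanide and sulfide, stood at 16.46 and 23.9 CPM untreated and at 18.3, 10.4, 53.4 and 54.4 CPM in DMSO. In DMSO alone 0 of the 16 passed, with fmo-2 at 1.97 (SE 0.36, edgeR adjusted p = 0.0621), in the fits that left out 1 library the count was 1 to 5, and without both 1 h libraries it was 1.

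Other genes whose shared slope rose were lea-1, a late embryogenesis abundant protein gene tied to desiccation, and dod-23, which did not pass in DMSO alone (0.69, SE 0.13, edgeR adjusted p = 0.0621). The level of lea-1 was 301 and 175 CPM untreated and 152, 234, 544 and 637 CPM in DMSO (slope 0.76, SE 0.09, edgeR adjusted p = 0.0016), and in DMSO alone it passed as well (0.85, SE 0.12, edgeR adjusted p = 0.0219). Both untreated libraries lay between the 1 h and the 4 h value. The osmolyte gene gpdh-1, described above, fell by the shared slope ( -1.03, SE 0.13, edgeR adjusted p = 0.0029), as did gpdh-2 (-0.63, SE 0.10, edgeR adjusted p = 0.0077) and the 1-carbon genes mel-32, pmt-2 and mtrr-1. None of these 5 passed in DMSO alone, with edgeR adjusted p of 0.0574 for gpdh-1, 0.202 for gpdh-2, 0.447 for mel-32, 0.524 for pmt-2 and 0.272 for mtrr-1. The troponin gene tni-1 of muscle stood at 24.4 and 28.9 CPM untreated and at 21.3, 16.14, 9.70 and 8.89 CPM in DMSO, lower at each later hour (shared slope -0.78, SE 0.12, edgeR adjusted p = 0.0077). In DMSO alone its slope was -0.53 (SE 0.13, edgeR adjusted p = 0.176), which did not pass.

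Among the largest rising slopes were genes that were high in U0126 alone. The P450 genes cyp-35A4 and cyp-35B2 and the lectin clec-206 were at 1.02 CPM or below in every DMSO library, while cyp-35A4 stood at 2.18, 57.9, 182 and 1513 CPM in U0126. Among the largest falls were fbxa-128 (28.2, 13.5, 1.87 and 0.71 CPM in DMSO), oac-20 (52.8, 55.0, 8.34 and 2.59 CPM in DMSO) and col-77. The level of col-77 was 49.5 CPM in DMSO at 1 h and 0.84 to 1.52 CPM at later hours. It was 0.66, 0.24, 0.93 and 0.13 CPM in U0126 and 0.99 and 0.67 CPM untreated. Only the 1 h library of DMSO was high, so its slope does not show a trend seen in both treatments.

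**Figure D4:**
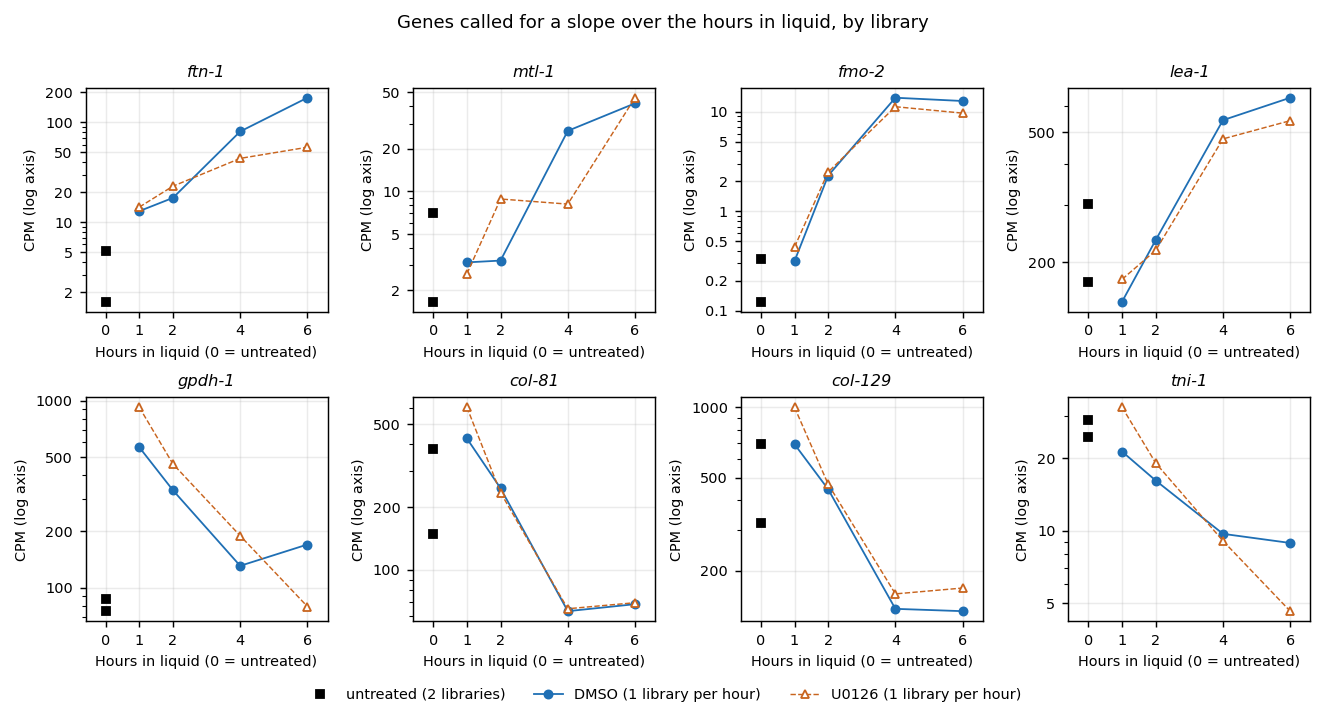
Level (vertical axis, CPM on a log axis) of 8 genes called for a slope over the hours, against hours in liquid (0 being untreated), with squares for the untreated libraries, circles for DMSO and triangles for U0126. The upper row climbs, with ftn-1 at 12.9 CPM at 1 h and 176 CPM at 6 h in DMSO, and the lower row drops, with col-129 at 694 CPM at 1 h and 135 CPM at 6 h.

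Whether the response differed from that of the other double mutant was tested as an interaction over 15 libraries, 6 of PF and 9 of PL, the latter being 2 untreated and 7 in DMSO for 1 to 6 h. PL replicates 1 and 2 at 1 h in DMSO were left out because molt genes had set them apart earlier. The untreated PL libraries, which stayed in, held col-81 at 2216 and 2352 CPM, against 149 and 380 CPM in untreated PF. The median difference of responses was 1.56 for 132 collagens (105 positive), 0.53 for 77 ribosomal protein genes (75 positive) and -0.50 for 36 oocyte genes (1 positive). Over all genes 49.3% were positive. The part of the untreated levels in these shifts was not tested. The response differed for 1 gene, 0.00682% of 14658 tested, at an unadjusted p under 0.05 for 810 (5.53%, with 2.9% up and 2.63% down) with edgeR. That gene was srlf-34. It stood at 13.4 and 11.5 CPM untreated and at 13.6, 17.2, 17.7 and 9.34 CPM in DMSO in PF, which overlap, and at 1.74 and 1.90 CPM untreated and 16.6 to 36.7 CPM (median 26.7, n = 7) in DMSO in PL. The responses were 0.21 (SE 0.28) in PF and 3.88 (SE 0.33) in PL on the log2 scale, a difference of -3.67 (SE 0.40, edgeR adjusted p = 0.0021), and the call was lost without either untreated PL library and with the replicate number as a block. There were 4 calls without PL replicate 1 at 2 h and 2 without PF untreated replicate 2.

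The 11 genes moved the same way in PL. The 9 that rose in PF lay above untreated without overlap in PL, as did 10.6% of all genes, and the 2 that fell lay below, as did 15.2%. In PL argk-1 went from 3.31 and 4.25 CPM untreated to 40.2 to 137 CPM (median 83.9, n = 7) in DMSO, a log2 change of 4.48 (SE 0.48) against 5.96 (SE 0.58) in PF. The transsulfuration gene cth-1 went from 37.4 and 46.3 CPM to 123 to 386 CPM (median 162), a change of 2.30 (SE 0.43) against 3.53 (SE 0.48). Their differences, 1.48 (SE 0.67) and 1.23 (SE 0.55), did not pass (edgeR adjusted p = 0.875 for both), which does not show that the responses are alike.

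When 49 libraries with each hour as its own group gave the spread, 264 genes differed, 1.62% of 16294. The PF change lay above the PL change for 219 (1.34%) and below it for 45 (0.276%). The 219 include genes that fell in PL with little change in PF, such as lap-1 (-0.62 in PL, 0.18 in PF) and hsp-110 (-1.08 and -0.10). They also include genes that rose in PF, such as irg-1 (-0.47 in PL, 3.03 in PF). Both argk-1 (1.72, SE 0.45, edgeR adjusted p = 0.0488) and cth-1 (1.46, SE 0.26, edgeR adjusted p = 0.00813) had a larger log2 change in PF than in PL. The other 9 genes did not pass there. For argk-1 the mean level in DMSO was 90.9 CPM in PF and 82.3 CPM in PL. Its untreated means were 1.39 and 3.78 CPM, both low, and the 2 genotypes were scaled over different sets of libraries. Whether the untreated or the DMSO levels differed between the genotypes was not tested. For cth-1 the DMSO means were 288 and 203 CPM and the untreated means 24.9 and 41.8 CPM. The variation between PF DMSO libraries does not enter the spread of the 49-library fit, which was added after seeing the data. The wild type was not tested here, and its values are given as levels. In N2 argk-1 stood at 0.53 and 6.65 CPM untreated and at 9.73 to 75.2 CPM in DMSO (median 55.9, n = 6), above untreated without overlap. Its cth-1 stood at 19.5 and 41.1 CPM untreated and at 29.8 to 270 CPM (median 210), which overlap, and untreated replicate 2 of N2 stood apart from replicate 1 in the germline genes. Across the 10108 genes that averaged 5 CPM or more in PF, the PF and PL responses, which share no library, correlated at r of 0.466, and at 0.204 over all 14658, across genes that are not independent replicates.

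**Figure D5:**
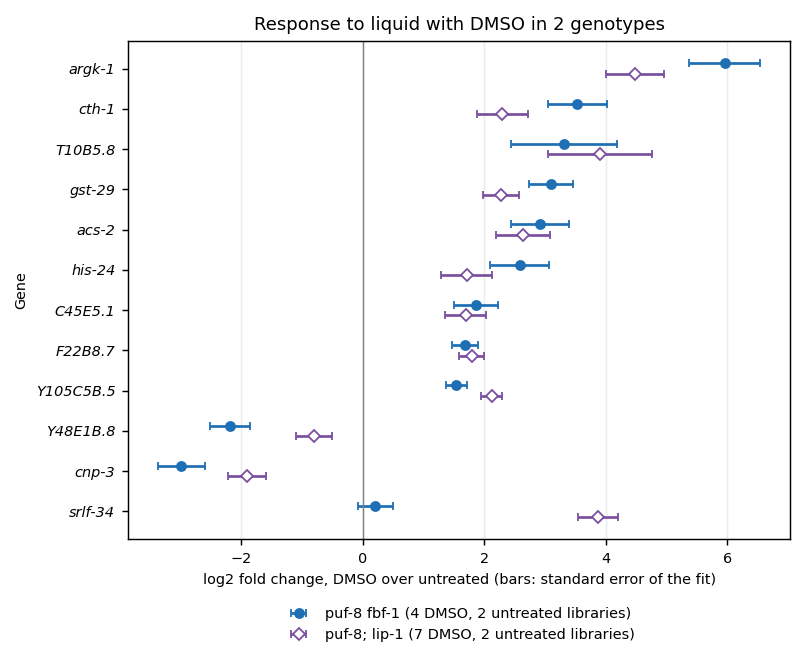
Fitted log2 fold change of DMSO over untreated (horizontal axis, bars showing the standard error) for the 11 called genes and srlf-34 (vertical axis) in PF (filled circles) and PL (open diamonds). The circle and the diamond lie on the same side of 0 for the 11 genes, and for srlf-34 the PF value is 0.21 and the PL value 3.88.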

How the data were processed

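The authors deposited raw read counts per gene, 1 table for each library. Per the labels' protocols, polyA RNA of whole worms was extracted with Trizol and made into libraries with a TruSeq kit, which does not mark strand. The submitters' processing notes name CASAVA, TopHat, DESeq and the build ce10 (counting tool, annotation: not given in the sources used here). Each table's last 5 category lines were dropped. Reads assigned to no gene were 50.6% to 52.1% and ambiguous reads 0.313% to 0.346% of the 6 libraries compared. No pair of the 10 PF libraries agreed within sampling noise. Gene names came from the Ensembl annotation of WBcel235, which matched 44936 of 45461 identifiers, and no coordinates are given because that build differs from ce10.

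Counts were tested in R 4.3.3 with edgeR 4.0.16 (TMM scaling, trended dispersion, quasi-likelihood F test, Benjamini-Hochberg adjustment over all genes tested, threshold 0.05), after keeping genes with at least 1 CPM in at least 2 libraries. The SE was taken as the size of the log2 change over the root of the F statistic. Residual degrees of freedom were 4 for the main comparison, 5 for the hour and 11 for the difference from PL. CPM values of PF were scaled over the 10 PF libraries, those of PL over the 15 libraries of the difference, and those of N2 over all 52. The tests were tested on simulated data first. Named genes are the largest called changes of each comparison with a mean of at least 5 CPM, the called members of each list with the smallest adjusted p, and a set of germline regulators. Genes called only in the 51-library fit, and cth-2, gst-4, hil-3, myo-3 and M163.16, were chosen after their values were seen. The comparison, the 37 gene lists and the regulators were chosen with earlier results of these data known.

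The alternatives were another scaling, other filters, a robust fit, DESeq2 1.42.0, other sets of libraries, each library left out, the hour on a linear scale and a block for the replicate number. A slope for DMSO alone, a slope without both 1 h libraries and the 49-library difference were added after seeing the data. A planned description of promoter motifs was not run.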

Additional observations from a re-analysis of the deposited data

Results flagged for a closer look

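In 5 of 77 named genes 1 of the 4 DMSO libraries of PF stood far from the other 3, by a gap that, as a share of the range of the group, was above Dixon's 95% critical value for 4 samples. Chance gives about 1 such group in 20 where the 4 samples are replicates. These 4 libraries are different hours, so that rate does not apply here. The genes ugt-12, lys-4 and col-77 were named for a slope that fell with the hour, which favours a high value at 1 h. The gap was 0.84 of the range for ugt-12 (64.2 CPM at 1 h), 0.873 for lys-4 (202 CPM at 1 h) and 0.986 for the collagen col-77 (49.5 CPM at 1 h), which were high at 1 h. It was 0.834 for puf-8 (5.78 CPM at 4 h) and 1.0 for gst-8, which had 1 read at 4 h (0.17 CPM) and 0 in the other 3 libraries, so that its gap is the whole range by construction and shows no library apart.

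The response of srlf-34 differed between the genotypes by -3.67 on the log2 scale (SE 0.40, edgeR adjusted p = 0.0021), the test being of the difference itself. All 7 DMSO libraries of PL were above both untreated ones, while the PF groups overlapped. The call was lost without either untreated library of PL and under the replicate block.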

How the results depend on the processing

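The 11 calls of DMSO against untreated became 354 with no filter, 116 with DESeq2, 1 with U0126 as a group of its own, 75 with the 10 PF libraries in hour groups, 142 with 52 libraries and 484 with 51 (264 rising, 220 falling, against 9 and 2). They numbered 1 to 23 when 1 library was left out. All 11 genes kept their direction in the 15 alternatives, argk-1 was called in all 15 and Y48E1B.8 in 5. Of the regulators over the 15 alternatives, fog-1 ran from -0.103 to 0.0490, gld-1 from -0.0216 to 0.157 and mpk-1 from -0.0398 to 0.151 on the log2 scale. The value of fog-1 turned to 0.0490 without untreated replicate 2, 0.0382 without 1 h, 0.0218 without 6 h, 0.0323 with 52 libraries and 0.0324 with 51, mpk-1 to -0.0398 without untreated replicate 2 and gld-1 to -0.0216 without 4 h.

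The 320 calls of the PF hour trend in liquid became 650 with no filter, 799 with DESeq2, 135 on a linear hour, 38 in DMSO alone and 36 without 1 h. They numbered 70 (without U0126 at 1 h) to 781 (without DMSO at 6 h) with 1 library left out. The 1 call for the difference between genotypes became 45 with DESeq2, 264 with 49 libraries and 0 to 4 with 1 library left out. With the replicate block it became 0. PL libraries of the same number deviated together weakly (r of -0.12 to 0.19 over 6 pairs of groups, 1 over 0.1), so the numbers were not taken as pairs. No paired analysis was possible for DMSO against untreated because all 4 DMSO libraries carry the number 1. Of the list medians 28 moved and 231 did not. The causes were not tested.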
